A study of Caenorhabditis elegans with 6 samples.

Results

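The genes described here are *hcp-1*, *hcp-3*, *hcp-4*, *hcp-6*, *knl-1*, *knl-2*, *knl-3*, *bub-1* and *ndc-80*, which encode proteins of the centromere and kinetochore of *Caenorhabditis elegans* and, for *hcp-6*, of mitotic chromosomes. They were chosen by name, through their gene symbols in the WBcel235 annotation, and all 9 were found among the 22185 genes and 151 transposon families for which the study listed 22G-RNA counts. 22G-RNAs are small RNAs of 22 bases that begin with G and are made by RNA-dependent RNA polymerases as complements of a target transcript, so the values below count small RNAs antisense to these genes and not their mRNA. Small RNAs were sequenced from whole gravid adults of wild-type strain N2 and of strain RFK1256, which carries *lotr-1(sam117)* on chromosome I, with 3 libraries for each genotype. LOTR-1 carries LOTUS and Tudor domains and sits in germ granules. The *sam117* allele lacks the full *lotr-1* coding sequence. In the study's strain list it leaves a 3xFLAG::GFP tag joined to the end of the gene, so that loss of LOTR-1 and presence of the tag cannot be told apart against N2, which has neither. All animals were grown on OP50 bacteria for 65 hours after arrest as L1 larvae. Nothing in the labels says whether the libraries of a genotype came from separate cultures, and the p-values then measure only the spread between these libraries.

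Chromosomes of *C. elegans* are holocentric, which means that kinetochores assemble along the whole length of each chromosome rather than at a single spot. The histone H3 variant HCP-3 (CENP-A) marks the sites of assembly, inner proteins bind to it, and an outer network captures spindle microtubules. A link to small RNAs comes from the Argonaute CSR-1, which binds 22G-RNAs antisense to many germline-expressed genes and whose loss disturbs kinetochores and chromosome segregation. The question of the comparison was which genes gained or lost 22G-RNAs without LOTR-1. The libraries were made from total RNA, so the counts do not tell which Argonaute a 22G-RNA was bound to.

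Libraries held between 3150716 and 3829101 counts at the listed loci. Median-of-ratios size factors, by which the counts were divided, had a mean of 1.32 for wild-type and of 0.776 for *lotr-1(sam117)*, and the quotients are called normalized counts. *lotr-1* itself fell from 394 ± 10.7 to 64.2 ± 13.7 normalized counts (SD, n = 3), in the direction its label gives in every mutant library (log2 fold change -2.62, DESeq2 adjusted p = 1.99e-21 against 2-fold). The body parts and cell types of a whole animal were not separated and no mRNA was measured. Fewer germ cells and fewer 22G-RNAs per cell therefore cannot be told apart, and tissue markers could not be checked.

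Each of the 9 genes carried 22G-RNAs in each library, with between 78 and 1401 counts, so that none depended on a genotype to pass a filter on low counts. With size factors, none was called as changed by more than the 2-fold limit that the study used. In the DESeq2 test against an absolute log2 fold change of 1, adjusted over all loci at 10% FDR, 0 of 9 were called, where 16.3% of the 11682 loci tested were called in either direction. In the DESeq2 test against no change, *knl-2* and *ndc-80* fell by about the same proportion, 40.9% and 41.0%, *hcp-3* rose by 24.0% and *knl-3* rose by 14.3%. The other 5 genes did not pass. Background rates in that test were 22.7% lower and 20.4% higher among 13386 loci, 43.1% in all. Among 3687 protein-coding genes averaging 100 or more normalized counts, which all 9 genes have, 64.5% were called in either direction, against 4 of 9 here.

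**Figure D1:**
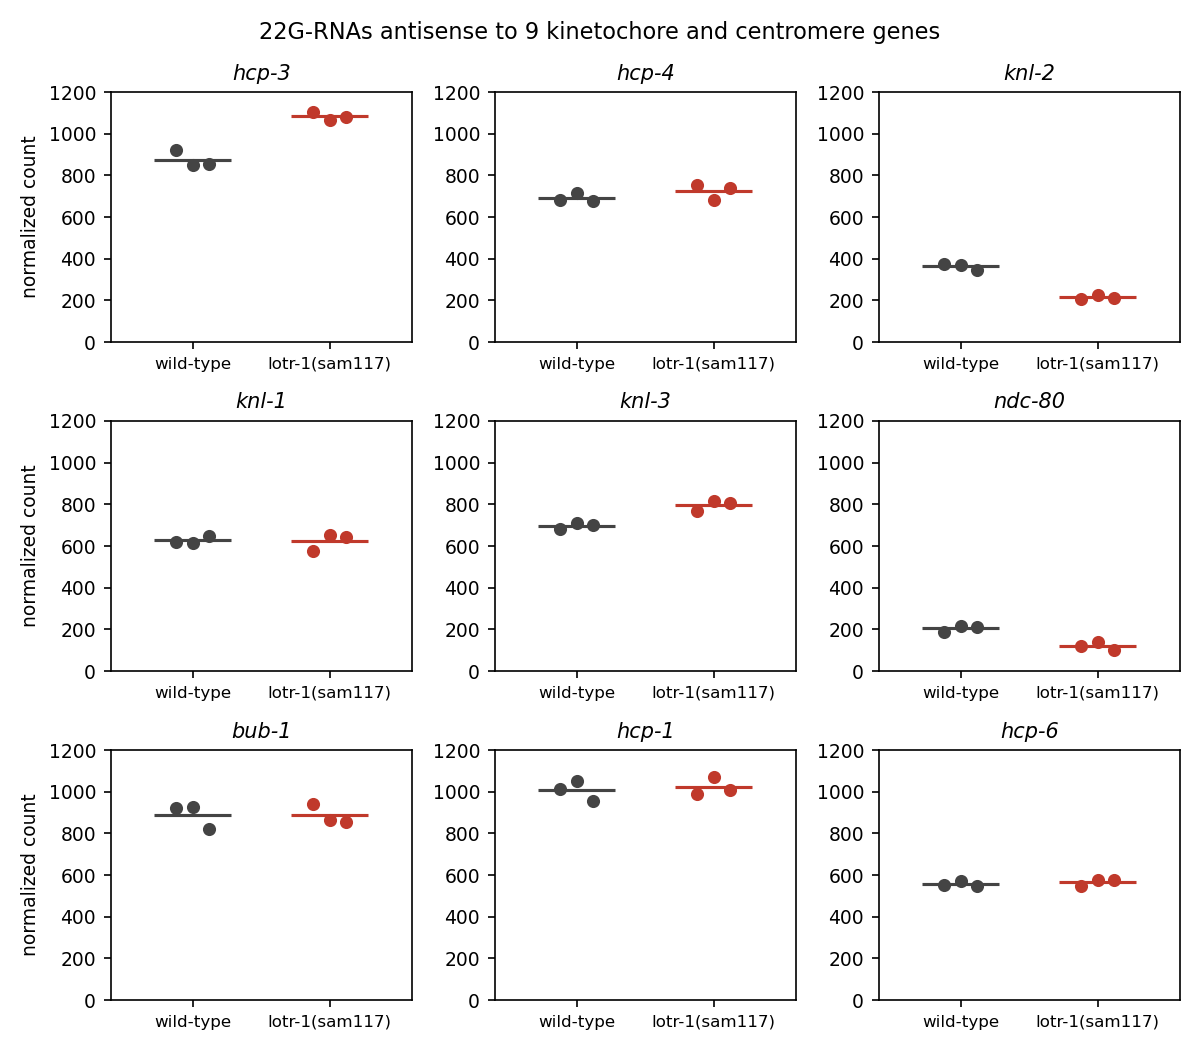
Normalized 22G-RNA counts (y axis, from 0) at each of the 9 genes in the 3 wild-type (grey) and 3 *lotr-1(sam117)* (red) libraries, with a line at each mean. The genotypes do not overlap at *knl-2*, *ndc-80*, *hcp-3* and *knl-3*, and they overlap at the other 5 genes. How often the genotypes do not overlap at other loci was not computed.

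These directions hold relative to the typical locus, which size factors take as unchanged. When libraries were instead scaled to equal totals, each of the 9 estimates shifted by -0.79 on the log2 scale, the median of 8789 loci averaging 10 or more normalized counts moved from -0.052 to -0.84, and all 9 genes were lower in *lotr-1(sam117)*. On that scale the 9 log2 fold changes ran from -1.55 (*ndc-80* and *knl-2*) to -0.48 (*hcp-3*), with a median of -0.77. All 9 passed the DESeq2 test against no change, in which 46.7% of loci were called lower. That share is over all loci tested, including those with few counts. It was not computed for loci with counts as high as those of the 9 genes. *knl-2* (DESeq2 adjusted p = 1.75e-05) and *ndc-80* (adjusted p = 0.00343) also passed the test against 2-fold, in which 20.0% of loci were called lower. Which genes stood highest and lowest among the 9 was the same on both scales, which follows from a shift that is nearly equal for all genes. The text below uses size factors and names the other scale where it is used.

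**Figure D2:**
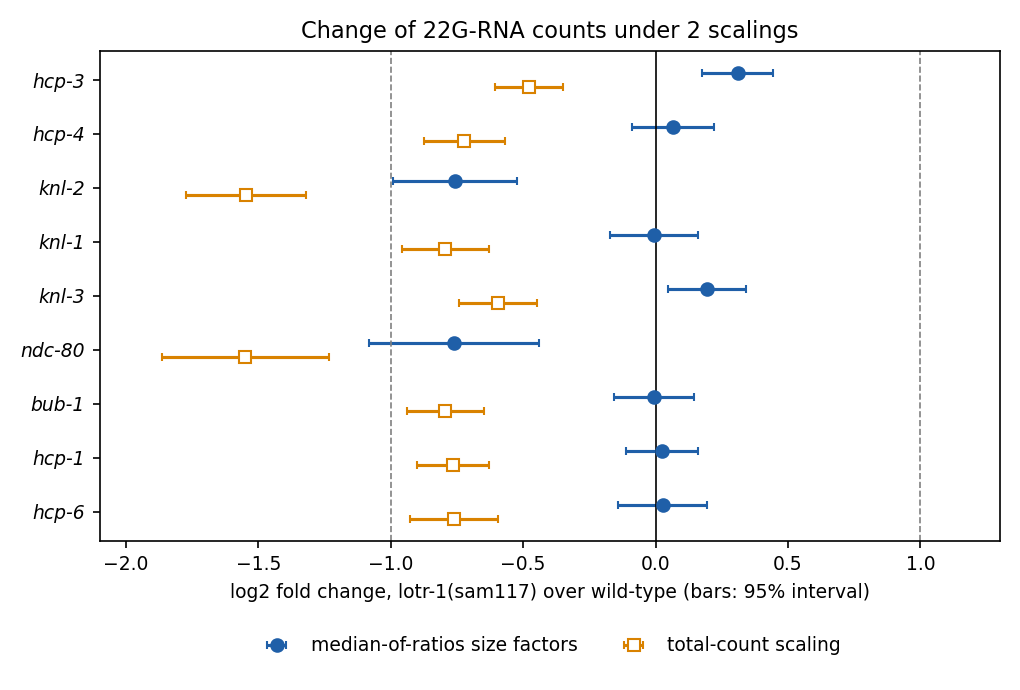
Log2 fold change of 22G-RNA counts, *lotr-1(sam117)* over wild-type, for the 9 genes, with bars for the 95% interval from the DESeq2 standard error. Filled circles use size factors and open squares use total-count scaling. Dashed lines mark a 2-fold change. Every gene is shifted by -0.79 between the scales, so *knl-2* and *ndc-80* are the lowest on both by construction.

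Centromeric chromatin. *hcp-3* (WBGene00001831, chromosome III, 9615306 to 9616470, minus strand, WBcel235) encodes the CENP-A histone variant itself. It had 921, 848 and 856 normalized counts in wild-type replicates 1 to 3 and 1106, 1066 and 1080.4 in *lotr-1(sam117)*. Every mutant library was above every wild-type library. The log2 fold change was 0.31 (adjusted p = 2.93e-05 by DESeq2, SE 0.0687 against no change), a 1.24-fold rise, and it turned to -0.48 with total-count scaling. *cpar-1*, a close paralog that also encodes a CENP-A-like histone, had 63.5 ± 4.12 and 77.3 ± 13.3 normalized counts (SD, n = 3), which is a log2 change of 0.28 that did not pass (adjusted p = 0.384 by DESeq2, SE 0.235). Reads that align equally well to both were placed at random by the authors. Summing both genes before the fit, an alternative added after the data were seen, gave 0.31 (adjusted p = 1.59e-05 by DESeq2, SE 0.0663). Few counts of this sum came from *cpar-1*, so it was bound to lie near the value of *hcp-3* alone.

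*hcp-4* (WBGene00001832, chromosome I, 3862833 to 3865938, minus strand) encodes the CENP-C homolog, which links HCP-3 chromatin to the outer kinetochore. It had 679.8, 715 and 678 normalized counts in wild-type, against 752, 682 and 738 in the mutant, so that the genotypes overlapped. The log2 fold change was 0.066 (95% interval -0.089 to 0.22, DESeq2 adjusted p = 0.563).

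*knl-2* (WBGene00019432, chromosome I, 6460878 to 6464286, plus strand) encodes a protein with a Myb-like domain that HCP-3 needs for its loading onto chromatin. It had 374, 372 and 349 normalized counts in wild-type, against 208, 226 and 212 in *lotr-1(sam117)*, from 440, 495 and 510 raw counts against 153, 190 and 159. The highest mutant library was well under the lowest wild-type library. The log2 fold change was -0.76 (95% interval -0.99 to -0.53, SE 0.120, adjusted p = 1.38e-09 by DESeq2 against no change). With size factors, 22G-RNAs thus rose at the gene for the centromeric histone and fell at the gene for its loading factor. The change at *hcp-4*, which encodes the protein that reads the histone, did not pass. With total-count scaling all 3 genes were lower.

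Outer kinetochore. KNL-1, the MIS-12 complex and the NDC-80 complex form the network that binds microtubules. *ndc-80* (WBGene00003576, chromosome IV, 10086137 to 10088437, plus strand) encodes the subunit that contacts the microtubule, and it had the fewest 22G-RNAs of the 9 genes. Raw counts were 220, 288 and 313 in wild-type, against 89, 117 and 78 in the mutant. Normalized, these were 187, 216 and 214 against 121, 139 and 104. No mutant library reached the wild-type range, although both groups were more spread in proportion than at *knl-2*. The log2 fold change was -0.76 (95% interval -1.08 to -0.44, SE 0.164, adjusted p = 1.64e-05 by DESeq2 against no change).

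*knl-3* (WBGene00020392, chromosome V, 1869213 to 1870558, plus strand) encodes a subunit of the MIS-12 complex, which joins the outer network to the inner kinetochore. It had 683, 710.2 and 700.4 normalized counts in wild-type, against 767, 817 and 809 in the mutant, again with no overlap. The rise was small, a log2 fold change of 0.19 (adjusted p = 0.0294 by DESeq2, SE 0.0754). This call was lost when wild-type replicate 1, 2 or 3 or *lotr-1(sam117)* replicate 2 was left out, with DESeq2 adjusted p = 0.156, 0.103, 0.135 and 0.125 in that order and a log2 fold change between 0.16 and 0.19. On the total-count scale *knl-3* was lower, at -0.60.

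*knl-1* (WBGene00002231, chromosome III, 8250632 to 8253943, plus strand) encodes the scaffold of the network, to which checkpoint proteins also bind. Normalized counts were 619, 613 and 649.9 in wild-type, against 577, 653 and 644 in the mutant. The libraries overlapped fully and the log2 fold change was -0.0051 (95% interval -0.17 to 0.16, DESeq2 adjusted p = 0.974). With size factors, the 3 genes of the outer network that are described here therefore included a fall, a rise and a difference close to 0. The rise, at *knl-3*, was not called in every fit.

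Checkpoint, corona and condensin. *bub-1* (WBGene00000275, chromosome I, 7251941 to 7255223, plus strand) encodes a kinase of the spindle checkpoint that docks on KNL-1. It had 921, 929 and 819 normalized counts in wild-type, against 939, 865 and 854 in the mutant, a log2 fold change of -0.0049 (95% interval -0.15 to 0.15, DESeq2 adjusted p = 0.972). *hcp-1* (WBGene00001829, chromosome V, 6594194 to 6599208, plus strand) encodes a CENP-F-like coiled-coil protein that BUB-1 brings to kinetochores and that in turn recruits the CLASP protein CLS-2. It had the highest raw counts of the 9 genes in every wild-type library, and 1014, 1052 and 955 normalized counts in wild-type, against 991, 1070.1 and 1006 in the mutant. The log2 fold change was 0.023 (95% interval -0.11 to 0.16, DESeq2 adjusted p = 0.841). At both genes the libraries of the genotypes overlapped.

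The paralog of *hcp-1*, *hcp-2*, encodes a protein that shares the role of HCP-1. It rose from 309 ± 8.03 to 376 ± 18.1 normalized counts (SD, n = 3), which is a log2 change of 0.28 (adjusted p = 0.0242 by DESeq2, SE 0.107). The call was lost without wild-type replicate 2 (adjusted p = 0.141) or *lotr-1(sam117)* replicate 2 (adjusted p = 0.131), and total-count scaling gave -0.51. With the counts of both paralogs summed, the log2 fold change at *hcp-1* was 0.089 and did not pass (DESeq2 adjusted p = 0.270).

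*hcp-6* (WBGene00001833, chromosome I, 5165148 to 5171313, plus strand) encodes a condensin II subunit that shapes mitotic chromosomes. It had 555, 571 and 548 normalized counts in wild-type, against 549.6, 577 and 577 in the mutant. The log2 fold change was 0.027 (95% interval -0.14 to 0.19, DESeq2 adjusted p = 0.852). Over *hcp-4*, *knl-1*, *bub-1*, *hcp-1* and *hcp-6* the 95% intervals lay between -0.17 and 0.22 on the log2 scale, so changes larger than these were not seen at these genes relative to the typical locus.

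A gene's share of the counts at the 9 genes does not depend on how libraries are scaled. The shares of a library have a fixed sum, so smaller shares at some genes raise those of others. A larger share therefore does not by itself show a rise. Together the genes had 6998, 8024 and 8442 raw counts in wild-type, against 4428, 5116 and 4528 in the mutant. *hcp-3* took 14.8% ± 0.704 of these in wild-type and 17.9% ± 0.456 in the mutant (SD, n = 3). *knl-3* went from 11.8% ± 0.334 to 13.2% ± 0.380. By contrast *knl-2* went from 6.17% ± 0.123 to 3.56% ± 0.136 and *ndc-80* from 3.48% ± 0.297 to 2.01% ± 0.282. For these 4 genes the 3 libraries of a genotype did not overlap with those of the other, and for the remaining 5 they did. How often shares separate in this way within other sets of genes was not computed. Setting the loading factor against the histone, *knl-2* had 0.406, 0.438 and 0.407 counts for each count of *hcp-3* in wild-type, against 0.188, 0.212 and 0.196 in the mutant, a ratio 2.10-fold lower. Within the outer network, *ndc-80* had 0.274, 0.304 and 0.305 counts for each count of *knl-3* in wild-type, against 0.158, 0.171 and 0.128 in the mutant, 1.94-fold lower. The pairs were picked after their values were seen, and a ratio shows unequal change without saying which gene moved.

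**Figure D3:**
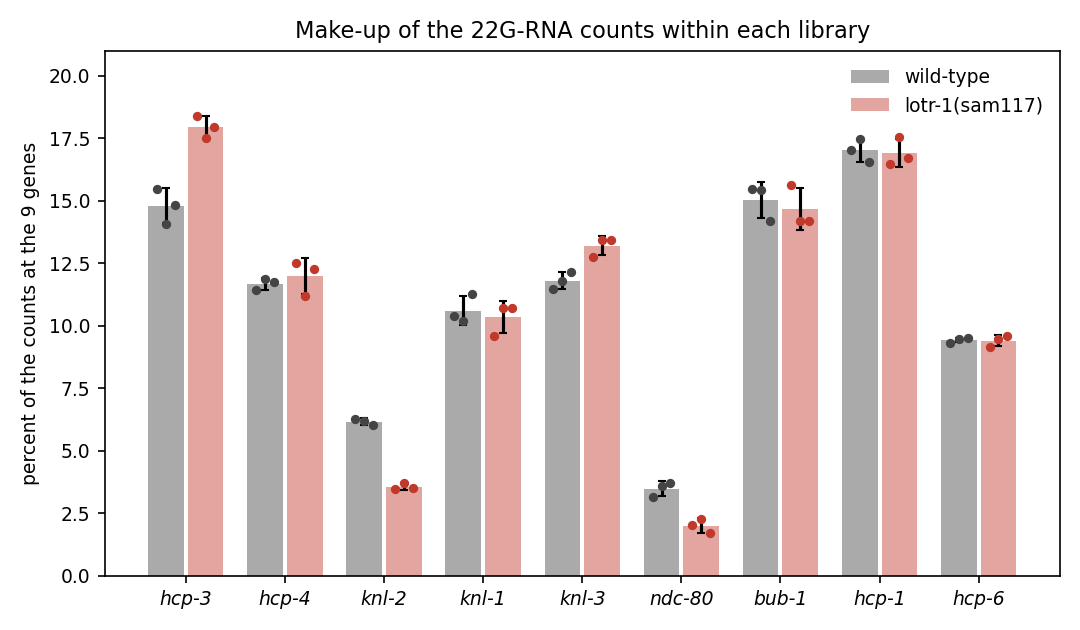
Percent of the 22G-RNA counts at the 9 genes that each gene took (y axis, from 0), as mean and SD over 3 libraries, with a point per library, in wild-type (grey) and *lotr-1(sam117)* (red). *hcp-3* and *knl-3* took larger shares in the mutant and *knl-2* and *ndc-80* smaller ones, with no overlap between genotypes at these 4 genes. How often this occurs within other sets of genes was not computed.

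As a share of all counts in the libraries, the 9 genes together made up 0.222%, 0.232% and 0.220% in wild-type, against 0.131%, 0.134% and 0.133% in *lotr-1(sam117)*. The means were 0.225% ± 0.00630 and 0.133% ± 0.00144 (SD, n = 3), 1.69-fold apart, and the genotypes did not overlap. With size factors the sums were nearly level, at 5954, 6024 and 5769 normalized counts against 6009, 6096 and 6025. The summed normalized counts of all loci were 1.73-fold higher in the mutant, so the smaller share went with a larger total at other loci on that scale.

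Levels were compared between genes as normalized counts per kilobase of merged exon, since lengths ran from 1014 bases (*hcp-3*) to 5298 bases (*hcp-6*). *hcp-3* was highest in wild-type at 863 ± 39.8 per kilobase (SD, n = 3), more than 98.4% of 16169 protein-coding genes with a count. *knl-3* followed at 567 ± 11.1, above 97.6% of genes. Next came *bub-1* at 291 ± 19.9, *hcp-4* at 255 ± 7.65, *hcp-1* at 216 ± 10.5 and *knl-1* at 206 ± 6.60. The lowest were *knl-2* at 124 ± 4.83, *ndc-80* at 108 ± 8.44 and *hcp-6* at 105 ± 2.18. The genes spanned 8.20-fold in wild-type, and all 9 were above at least 85.3% of those genes. Of neighbours in this order, *hcp-1* and *knl-1*, and *ndc-80* and *hcp-6*, overlapped between libraries, and the other neighbours did not.

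In *lotr-1(sam117)* the range widened to 16.8-fold. *hcp-3* reached 1069 ± 19.7 per kilobase and *knl-3* 649 ± 22.1 (SD, n = 3), while *knl-2* was at 73.3 ± 3.37 and *ndc-80* at 63.5 ± 9.33, both now below *hcp-6* at 107 ± 3.00. The order of the first 6 genes was the same in both genotypes. *knl-2* stood above 87.8% of protein-coding genes in wild-type and 82.0% in the mutant, and *ndc-80* above 85.6% and 79.7%.

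The genes called higher with size factors were the pair with the highest wild-type levels per kilobase, and those called lower were among the 3 lowest. *hcp-6*, the lowest, is the exception, with a log2 fold change of 0.027. Over the 9 genes Spearman's rank correlation between wild-type level per kilobase and log2 fold change was 0.68, given as a description, since both measures use the same wild-type libraries. Over 34 other chromosome segregation genes it was -0.069, so the order seen among the 9 was not seen in the wider list. With the mean level of both genotypes, which also shares libraries with the change, it was 0.83 over the 9 and 0.031 over the 34. The genes called higher, *hcp-3* and *knl-3*, were also the shortest of the 9, with 1014 and 1230 exon bases. Between exon length and log2 fold change the rank correlation was -0.32 over the 9 and -0.21 over the 34.

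**Figure D4:**
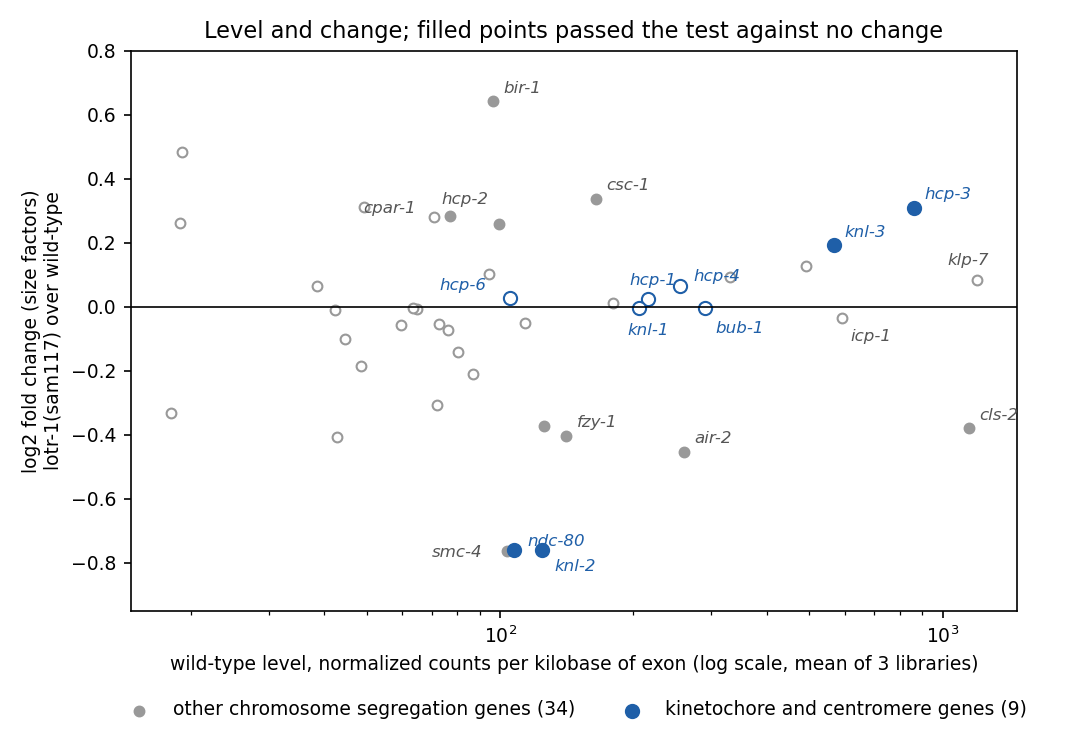
Wild-type 22G-RNA level per kilobase of exon (x axis, log scale) against the log2 fold change with size factors (y axis) for the 9 genes (blue) and 34 other chromosome segregation genes (grey). Filled points passed the DESeq2 test against no change at 10% FDR. *hcp-3* and *knl-3* lie at the upper right and *knl-2* and *ndc-80* at the lower left of the 9, beside *smc-4*.

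The wider list of 34 genes held other kinetochore subunits, checkpoint proteins, the chromosomal passenger complex, condensin, microtubule regulators of kinetochores and factors of anaphase onset. With size factors, 0 of 34 were called in the DESeq2 test against 2-fold, where 16.3% of all loci tested were. In the test against no change 4 were higher, 5 were lower and 25 did not pass, to be read beside the 20.4% and 22.7% of all loci given above. The median absolute log2 fold change was 0.066 over the 9 genes and 0.20 over the 34, where it was 0.82 over all loci tested and 0.53 over the 3687 protein-coding genes averaging 100 or more normalized counts. With total-count scaling 29 of 34 were lower and 0 were higher, where 46.7% of all loci tested, including those with few counts, were lower. On that scale *smc-4* (log2 fold change -1.55, DESeq2 adjusted p = 8.96e-07) and *cls-2* (-1.17, adjusted p = 5.28e-04) also passed the test against 2-fold. In that test 20.0% of all loci were called lower.

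The list's largest fall was at *smc-4*, which encodes an SMC ATPase shared by condensin complexes. It went from 561, 490.2 and 492 normalized counts to 334, 301 and 274, a log2 fold change of -0.76 (adjusted p = 2.05e-11 by DESeq2, SE 0.109), the same value to 2 decimals as at *knl-2* and *ndc-80*. With size factors, the calls at condensin genes differed, and the differences between these genes were not tested. Of 6 listed, *smc-4* was lower, *kle-2*, a kleisin-like subunit of condensin II, was higher (log2 fold change 0.26, DESeq2 adjusted p = 0.0665) and 4 did not pass. The *kle-2* call was lost when any library other than *lotr-1(sam117)* replicate 2 was left out, with adjusted p between 0.125 and 0.336, and its estimate was -0.53 with total-count scaling. The condensin II member *hcp-6* did not pass with size factors, as given above. On the total-count scale all 6 listed condensin genes were called lower, with log2 fold changes from -1.55 to -0.53. On that scale 46.7% of all loci tested, including those with few counts, were called lower.

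In the chromosomal passenger complex, which corrects attachments of microtubules, *air-2*, the Aurora B kinase, fell from 309.8 ± 12.7 to 226 ± 8.54 normalized counts (SD, n = 3), which is a log2 change of -0.45 (adjusted p = 7.78e-04 by DESeq2, SE 0.122). Its partner *bir-1*, the survivin homolog, rose from 64.8 ± 7.50 to 101 ± 6.43 (log2 fold change 0.64, adjusted p = 0.00865 by DESeq2, SE 0.214), with an estimate of -0.15 that did not pass on the total-count scale. *csc-1*, the borealin-like subunit, had a log2 fold change of 0.34 (DESeq2 adjusted p = 0.0856), which was lost in 5 of 6 fits that left out a library (all but the fit without *lotr-1(sam117)* replicate 1), with adjusted p up to 0.286, and which was -0.45 with total-count scaling. *icp-1*, the INCENP homolog, had a log2 fold change of -0.036 and did not pass (adjusted p = 0.714).

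Of the microtubule regulators, *cls-2*, which encodes the CLASP protein recruited by HCP-1, fell from 3826 ± 179.8 to 2939.8 ± 34.5 normalized counts (SD, n = 3), which is a log2 change of -0.38 (adjusted p = 9.38e-15 by DESeq2, SE 0.0474). *klp-7*, the depolymerizing kinesin MCAK, had the highest wild-type level per kilobase of the list, 1193 ± 56.7 (SD, n = 3), and a log2 fold change of 0.085 that did not pass (adjusted p = 0.169). It passed as higher with edgeR (0.15, adjusted p = 0.00170), with size factors set on loci averaging 100 counts or more (0.15, DESeq2 adjusted p = 0.00929) and without wild-type replicate 1 (0.10, DESeq2 adjusted p = 0.0826), and as lower with total-count scaling (-0.70). At anaphase onset, *fzy-1*, the activator of the anaphase-promoting complex, and *sep-1*, separase, fell with log2 fold changes of -0.40 and -0.37 (DESeq2 adjusted p = 0.00775 and 8.75e-04). None of the 7 other outer kinetochore subunits and none of the 8 checkpoint and dynein adaptor genes passed, so the fall at *ndc-80* had no called counterpart among the listed subunits of its network. The difference between *ndc-80* and these subunits was not tested, and several of them had few counts.

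By position, 4 of the 9 genes lie on chromosome I, as does the deleted gene, with starts 1236 kb (*bub-1*), 2027 kb (*knl-2*), 3322 kb (*hcp-6*) and 4625 kb (*hcp-4*) from that of *lotr-1*. Among these *knl-2* was lower and the other 3 did not pass. Of the remaining genes, 2 are on chromosome III, 2 on V and *ndc-80* on IV. No exon of the 9 genes overlaps an exon of another gene on the same strand, and 6 overlap a gene on the opposite strand. There, counting by strand keeps apart the small RNAs antisense to each gene. It does not separate them from sense reads of the other gene's transcript. The overlap was largest at *knl-3*, which shares 568 exon bases with *T10B5.3* and 139 with *T10B5.4*, of its 1230. Whether sense reads of these neighbours add to the counts was not tested.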

How the data were processed

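Per the deposited files, values are raw counts of 22G-RNA reads per locus with no normalization. The authors trimmed adapters (cutadapt 2.4), aligned with Bowtie 1.2.2 to WBcel235/ce11 with up to 1 mismatch, kept 1 random best position for multi-mapping reads and counted 22-base reads starting with G antisense to exons or transposons (featureCounts 1.6.2, Ensembl 96). Whether PCR duplicates were collapsed is not stated, so counting error alone is covered where 3 counts, at most 9.52e-05% of a library, are taken as the detection floor. Here all 22336 loci were fitted in DESeq2 1.42.0 (R 4.3.3, genotype as the only term, independent filtering) with Wald tests against 2-fold and against no change. Calls are Benjamini-Hochberg adjusted p-values below 0.1 over all loci tested. Symbols, positions and exon lengths are from Ensembl 115 (WBcel235). All 43 symbols matched. Scripts were tested on simulated data. Libraries of a genotype differed by a chi-square per degree of freedom of 1.40 to 1.87, so none was a copy. The 9 genes and the list were chosen with earlier results of these data known. From the list, the text names the paralogs *hcp-2* and *cpar-1*, the 3 largest rises and falls among called genes and the 3 highest wild-type levels per kilobase. *kle-2* and *sep-1* were added after their values were seen. Alternatives were other scalings, edgeR 4.0.16, other filters, a 5% FDR limit, a replicate block and leaving out each library. Levels per possible 22G-RNA site and the share of sites unique in the genome, which had been planned, were not computed, and positions of reads within genes were not analysed here.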

Additional observations from a re-analysis of the deposited data

How the results depend on the processing

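*knl-2*, *ndc-80* and *hcp-3* passed the test against no change in the same direction under all 15 alternatives other than total-count scaling. *knl-3* passed in 9 of these 15. Total-count scaling gave 2 genes past 2-fold lower, 0 changed higher and 9 changed lower, and in the list 2, 0 and 29. Of the genes named in the text, those whose estimates turned negative there were *hcp-3* (-0.48), *hcp-4* (-0.72), *hcp-1* (-0.77), *hcp-6* (-0.76), *knl-3* (-0.60), *hcp-2* (-0.51), *cpar-1* (-0.51), *bir-1* (-0.15), *csc-1* (-0.45), *kle-2* (-0.53) and *klp-7* (-0.70), a shift that follows from the scaling itself. TMM factors gave 1 gene higher, because *knl-3* (0.14, adjusted p = 0.125) no longer passed, and 2 list genes higher, with *hcp-1* at -0.025 and *hcp-6* at -0.022. Genes changed higher in the list numbered 7 with size factors set on loci averaging 100 counts or more, 9 with edgeR and 2 at 5% FDR. Values near 0 changed sign at *bub-1* and *knl-1* with size factors from genes only (0.0061 and 0.0059), set on loci averaging 100 counts or more (0.056 and 0.055) and with edgeR (0.059 and 0.058), and at *icp-1* in the last 2 (0.025 and 0.028). Of the alternatives other than total-count scaling, only edgeR called *hcp-4* (0.13, adjusted p = 0.0583) and *cpar-1* (0.34, adjusted p = 0.0643), and 3 called *klp-7* higher. Leaving out each library gave 1 to 2 genes higher, 2 lower and 0 past 2-fold, 1 to 3 list genes higher and 5 lower, with *bub-1* between -0.078 and 0.027, *hcp-1* between -0.031 and 0.047, *hcp-6* between -0.0027 and 0.051 and *knl-1* between -0.039 and 0.050. The share of all counts at the 9 genes differed by -0.0919 percentage points, by -0.0941 to -0.0883 without a library, and by -0.0761 without *hcp-1*, which removes its counts by construction.

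Same-numbered libraries did not deviate together (correlations of 0.0077, 0.0088 and 0.0084 over 8789 loci), and the labels do not pair them. With the replicate block 1 gene was higher (*knl-3*, adjusted p = 0.110, did not pass) and 2 were lower, with 2 list genes higher. Depth limits the list more than the 9 genes, since some of its genes have few counts.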
